A study of Mus musculus with 7 samples.

Results

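The comparison described here sets 2 libraries of the diet NWD2 against 3 libraries of the diet NWD1, 5 of the 7 libraries in the series, all of sorted mouse intestinal crypt cells. The libraries were taken by their diet label. The labels give the diets by code only. From what is known of them, NWD1 is a purified rodent diet modelled on Western nutrition, rich in fat and poor in calcium, vitamin D3 and methyl donors. NWD2 keeps that fat content but has calcium and vitamin D3 added back, so the pair asks what those additions do on a high-fat background. The other 2 libraries, of the purified control diet AIN76A, entered the fit only to estimate the spread and are given beside a few values.

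Mice of every group were 3 months old, had been on their diet since weaning, and carried BmicreERT2 and Rosa26RFP. In this design, Cre is made under the Bmi1 gene, becomes active on drug treatment, and switches on a red fluorescent protein that all descendants of the cell then keep. The sort took crypt cells with strong red fluorescence that were Epcam positive and CD45 negative, and RNA was sequenced in bulk. The labels give no drug dose or time between labelling and sorting, and do not say whether a library is 1 animal or a pool. P-values therefore measure the spread between these samples, which may be partly technical. The gate can hold both Bmi1-expressing cells and their differentiated descendants.

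Calcium uptake in the small intestine runs through the channel Trpv6 at the brush border, the cytosolic buffer S100g (calbindin-D9k) and the pump Atp2b1 at the basal side. The active form of vitamin D binds the nuclear receptor Vdr, which with a retinoid X receptor raises transcription of these genes and of Cyp24a1, the enzyme that inactivates the hormone. Scarce dietary calcium raises the hormone, and abundant calcium lowers it. Crypts also give rise to enteroendocrine cells, which store peptide hormones in granules, and to tuft cells, chemosensory cells that use the channel Trpm5. Bmi1 reporters have been used for slowly cycling reserve stem cells, and RNA of enteroendocrine cells has been described among Bmi1-marked cells.

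Total counts were 14034315 to 65822352 in the NWD1 libraries and 71331627 and 77959407 with NWD2, with the lowest in NWD1 replicate 3. Levels below are CPM, read counts relative to the library total scaled by TMM, a method that corrects for differing RNA composition, unless TPM, which also correct for gene length, are named. Bmi1 itself was at 2.12 to 5.25 CPM, Epcam at 225 to 1338 and Ptprc, which encodes CD45, at 1.17 to 5.75. The labels call the source stem cells, yet transcripts of differentiated cells made up much of the RNA. Enterocyte markers summed to 93136 to 170463 TPM and Paneth markers to 34369 to 67122, against 395 to 1148 for crypt-base stem cell markers. These sums are over 30, 20 and 22 genes of unlike abundance, so they describe RNA and do not measure shares of cells. All libraries were male except NWD1 replicate 2. NWD1 replicates 1 and 2 carried another i5 sequencing index than NWD1 replicate 3 and both NWD2 libraries, so for 2 of the 3 NWD1 libraries index and diet cannot be told apart. The TPM table has no column for NWD1 replicate 3 and has 1 column headed NWD2 replicate 3, a name that no sample carries. That column was not used, and its values were not compared with those of NWD1 replicate 3. The diet of NWD1 replicate 3 is thus less certain.

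NWD2 replicate 2 stood apart from the other 4 libraries. On the first principal component, 36.5% of the variance, it lay at 81.5 and the others between -44.4 and 2.68. It was over 2-fold below all other libraries in 946 genes and over 2-fold above them in 100. The highest correlation of log2 CPM across genes was between diets, 0.973 for NWD1 replicate 1 with NWD2 replicate 1, while the NWD2 pair reached 0.965 and the NWD1 pairs 0.955 to 0.965. The diets therefore did not form separate groups over all genes.

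No gene passed the edgeR test at an adjusted p under 0.05. Of 14626 tested genes, 987 (6.75%) were lower with NWD2 at an unadjusted p under 0.05 and 167 (1.14%) were higher. DESeq2, the alternative count test, called 170 genes lower (1.19% of the 14334 with an adjusted p) and 4 higher (0.0279%), Cyp51, Cyp3a44 and the predicted genes Gm10291 and Gm10925, of which the last was at 36.4 CPM in NWD2 replicate 1 and at 0.133 to 0.644 in the other 4 libraries. Library by library, both NWD2 values lay below all 3 NWD1 values in 2121 genes (14.5%) and above all 3 in 1575 (10.8%). The gap was at least 2-fold in 248 of the lower genes (1.7% of those tested) and in 21 of the higher ones (0.144%). The log2 fold change, NWD2 minus NWD1, was negative in 6808 genes (46.5%) and positive in 7818 (53.5%), with a median of 0.05 and quartiles at -0.44 and 0.3. These shares are the background for every gene group below.

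**Figure D1:**
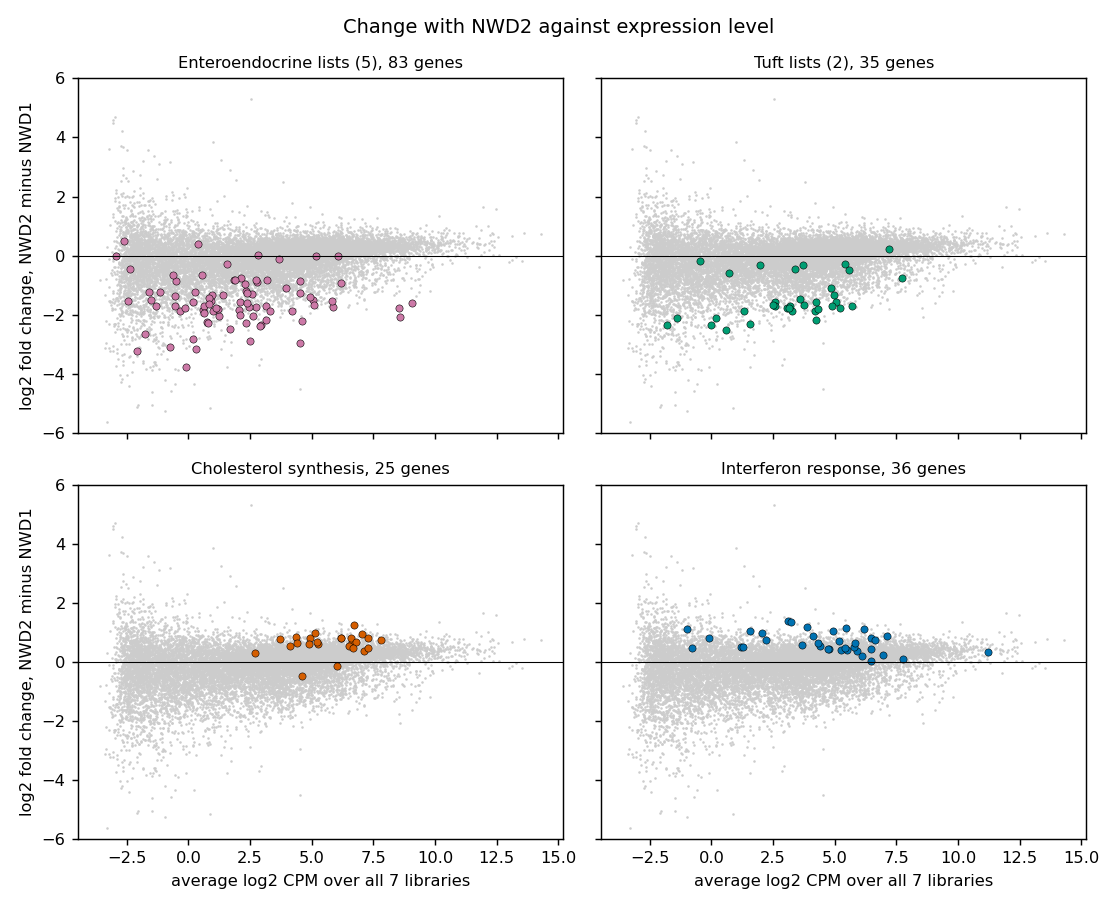
Log2 fold change (NWD2 minus NWD1) against average log2 CPM for all tested genes (grey) and the members of 4 groups of lists (coloured); 9 genes lie outside the vertical axis. Enteroendocrine and tuft genes sit mostly below 0 and cholesterol and interferon genes mostly above it, and the grey cloud runs from a median of -0.3 below 0 log2 CPM to 0.32 above 8.

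Weakly expressed genes were lower with NWD2 more often than strongly expressed ones. The median log2 fold change was -0.23 for the 2037 genes with an average log2 CPM of 0 to 2, where 20.2% had no overlap on the lower side. It was 0.14 for the 3741 genes at 4 to 6, with 11.3% lower, and 0.32 for the 681 genes above 8, with 4.41% lower and 22.9% higher. For the 3272 genes below 0 it was -0.3, with 16.5% lower. The trend differed between the NWD2 libraries. In NWD2 replicate 2 the median deviation from the 5-library mean was -0.26 at 0 to 2 and 0.38 above 8. In NWD2 replicate 1 it was 0.03 and -0.03. The NWD1 libraries were at 0.22, 0.17 and 0.02, and at -0.08, -0.15 and -0.09. Transcripts of high GC content were also more often lower. In the 1413 genes of highest GC content, from 57.6% upwards, the median was -0.27, and 23.9% were lower without overlap. Among them the median deviation from the 5-library mean was -0.38 in NWD2 replicate 2 and 0.01 in NWD2 replicate 1. These level and GC values were looked at after the first results were seen.

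Hormone cell genes led the lower side. The 15 lower genes of smallest p, chosen without predicted genes and clone names, included the incretin hormone Gip, the granule protein Chga, the vesicle GTPases Rab3b and Rab3c, the granule-associated Resp18, the peptide Ucn3, the retinol carrier Rbp4 and the sodium pump regulator Fxyd6. Gip was at 631, 326 and 378 CPM with NWD1 and at 85.5 and 123 with NWD2, and Chga at 395, 627 and 415 against 105 and 172. Every NWD2 value of these genes lay over 2-fold below every NWD1 value. The log2 fold change was -2.09 ± 0.38 (SE) for Gip and -1.79 ± 0.36 for Chga, each with an edgeR adjusted p of 0.472. The control libraries were at 613 and 489 CPM for Gip and at 379 and 533 for Chga, all above both NWD2 values.

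Among the rest of those 15, the cell adhesion protein Amigo2 was at 10.5, 15.1 and 9.89 CPM with NWD1 and at 1.32 and 0.483 with NWD2, a log2 fold change of -3.71 ± 0.63. Tpbg, a membrane glycoprotein that dampens Wnt signalling, was at 11.5, 16.4 and 11 against 1.35 and 0.917 (-3.52 ± 0.6). Amigo2 and Tpbg thus had the widest gaps of the 15. Bambi, a decoy receptor for TGF-beta family ligands, was at 15.9, 17.8 and 14 against 6.02 and 4.76. Rcn1, a calcium-binding protein of the secretory pathway, was at 9.35, 9.63 and 10.7 against 3.13 and 1.82. Fkbp9, Anxa6, a calcium-dependent membrane-binding protein, and Nebl, an actin-associated protein, completed the 15, with NWD1 values of 2.95 to 7.86 CPM and NWD2 values of 0.676 to 2.48. All 15 had an edgeR adjusted p of 0.472, and the DESeq2 adjusted p ranged from 5.58e-08 for Amigo2 to 0.000855 for Chga.

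Sterol genes led the higher side. Cyp51, the sterol 14-demethylase, was at 53.7, 84.8 and 57.6 CPM with NWD1 and at 121 and 190 with NWD2, a log2 fold change of 1.25 ± 0.3 with an edgeR adjusted p of 0.477 and a DESeq2 adjusted p of 0.0354. Sqle, Lss and Mvk of the same pathway were also among the 15. Ifit3, an interferon-induced antiviral protein, was at 5.81, 13.1 and 11.6 against 22.6 and 23.1. Lgals3, a galactose-binding lectin, was at 258, 278 and 288 against 401 and 634. Rdh11, a retinal reductase, stood at 65, 79.1 and 71.1 against 118 and 132. No gene of these 15 had a 2-fold gap between the diets. Other members were Gpr151, Tc2n, Rps4y2, Gnb5, Cyp3a44, the p53 target Ccng1 and the fatty acid desaturase Scd2. Rps4y2 and Cyp3a44 have close paralogs that can share reads. Cyp3a44 was at 13 CPM in NWD2 replicate 1 and at 4.52 in replicate 2, against 0.465 to 3.09 with NWD1.

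**Figure D2:**
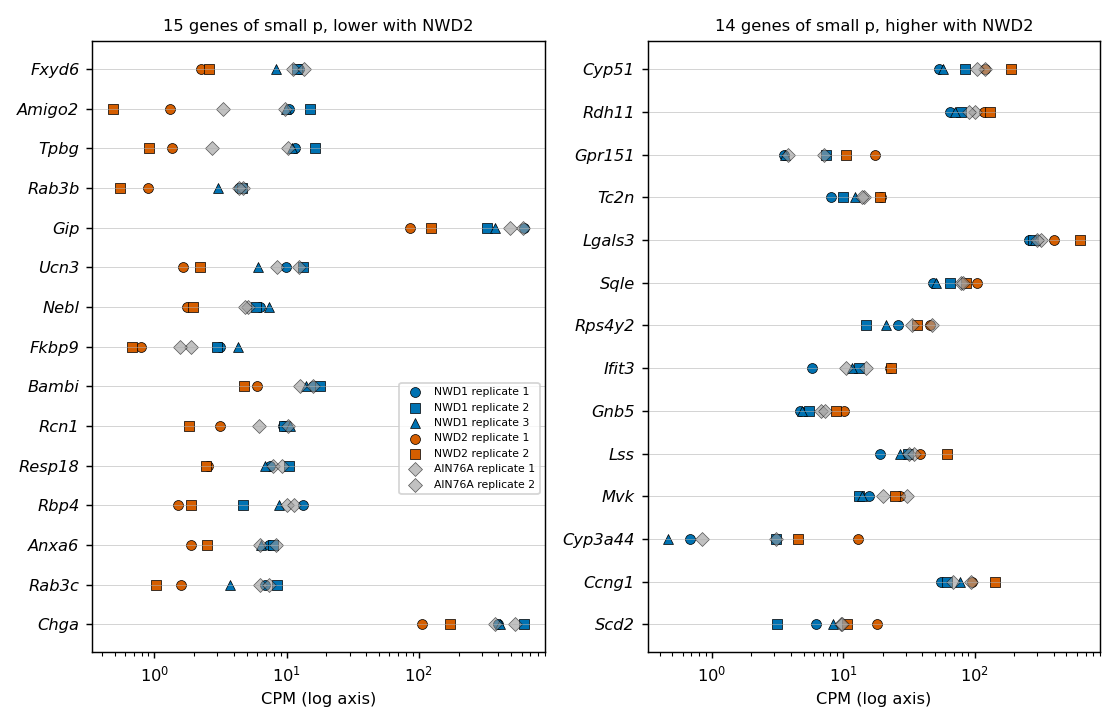
CPM on a log axis in each library for the 15 lower and 14 of the 15 higher genes of smallest p; blue is NWD1, orange NWD2 and grey AIN76A. In each gene the NWD2 points lie on one side of all NWD1 points, and these genes were picked for their small p; Gip is at 326 to 631 CPM with NWD1 and at 85.5 and 123 with NWD2.

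The 5 enteroendocrine lists together hold 83 tested genes. Both NWD2 libraries were below all NWD1 libraries in 59 of them (71.1%) and above them in 0, against 14.5% and 10.8% of all tested genes. The median log2 fold change was -1.6, DESeq2 called 32 of the 83, edgeR none, and 55 were lower at an unadjusted edgeR p under 0.05. Since the samples are bulk RNA, fewer enteroendocrine cells and less of these RNAs per cell cannot be told apart. None of the 5 lists lost its negative median in any alternative tried. Against NWD1 replicate 3 alone, the NWD1 library with the same i5 index, both NWD2 libraries were below it in 18 of 18 granule genes, 14 of 16 lineage factors and 7 of 12 hormones, and in 29.9% of all tested genes.

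Of the hormones, 12 of 16 listed genes were tested, and 6 were lower without overlap (50%; median log2 fold change -1.6). Summed over the list, hormone transcripts stood at 3042, 2013 and 1865 TPM with NWD1 and at 648 and 538 with NWD2, and at 2429 and 2505 in the control libraries. Gip made up the largest part of that sum, at 1839, 982 and 1214 TPM against 237 and 292. Sct, encoding secretin, was at 66.3, 94.2 and 86.4 CPM against 32.7 and 52.8. Cck, encoding cholecystokinin, was at 99.5, 35.6 and 36.7 against 25 and 9.59. Tac1, the substance P precursor of enterochromaffin cells, was at 48.4, 39.7 and 28 against 15.8 and 8.27. Pyy, a satiety peptide, was at 5.84, 17.4 and 4.51 against 1.42 and 1.11. Sst, Gcg, Ghrl, Nts, Iapp and Nmb overlapped between diets. Sst ran from 0.467 CPM in NWD2 replicate 2 to 78.6 in NWD1 replicate 1, with 4.78 in NWD1 replicate 3 against 25.1 in NWD2 replicate 1. The hormones were therefore uneven. Without NWD1 replicate 3, the library of uncertain diet, 10 of the 12 were lower without overlap. The share of all tested genes then also rose, from 14.5% to 20.6%.

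Transcription factors of the lineage were measured at low levels. Of 16 tested, 12 were lower without overlap (75%) at a median of -1.84, beside 20.2% and -0.23 for all genes of 0 to 2 log2 CPM, the range of the list's own median of 0.7. Neurod1, a bHLH factor of hormone cell differentiation, was at 8.71, 17.5 and 9.36 CPM with NWD1 and at 3.39 and 3.88 with NWD2. Lmx1a, a factor of the serotonin cell type, was at 9.23, 15.8 and 13.9 against 3.05 and 3.99. Rfx6, Pax4, Isl1, Nkx2-2, Insm1, Pax6, Myt1, Fev and Etv1 were also without overlap. Neurog3, the factor that starts the lineage in progenitors, overlapped at 1.14, 1.58 and 0.332 against 2.57 and 0.177. Foxa1 and Foxa2, which other gut epithelial cells also express, overlapped as well, as did St18.

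The promoters of the hormone genes were searched for CAGATG, an E-box sequence that Neurod1 and related bHLH factors bind, on both strands in the 250 bases before each start in RefSeq (GRCm38.p6). It was found in 6 of the 12 hormone genes (50%) and in 12.1% of the 9660 tested genes with a promoter entry, in 6 of 20 tuft identity genes (30%), in 2 of 12 lineage factors and in 0 of 16 granule genes. These matches describe letters, not binding. Shown are the last 100 bases before the start of Cck (chr9:121495695-121495794, minus strand) and of Ucn3 (chr13:3945350-3945449, minus strand), both lower without overlap, with the E-box in capitals.
Cck: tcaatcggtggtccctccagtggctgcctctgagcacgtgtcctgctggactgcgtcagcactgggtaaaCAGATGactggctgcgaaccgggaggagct
Ucn3: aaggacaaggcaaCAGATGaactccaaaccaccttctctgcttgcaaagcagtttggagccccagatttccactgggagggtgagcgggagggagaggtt

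Granule proteins and prohormone processing enzymes were the most uniform group. All 18 had negative log2 fold changes, 16 were lower without overlap (88.9%), 12 of them by at least 2-fold, and DESeq2 called 10. Chgb, a granule core protein like Chga, was at 530, 762 and 670 CPM against 176 and 249. Cpe, the carboxypeptidase that trims prohormones, was at 37.2, 31.9 and 35.5 against 6.95 and 2.01. Pcsk1, the convertase that cuts them first, was at 19.1, 23.2 and 30.7 against 11.6 and 15.4. Scg2 and Pcsk2 were the 2 that overlapped. Leaving aside the genes of highest GC content, 11 of 13 were lower without overlap, beside 1783 of 13213 tested genes.

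Regulated exocytosis split by gene. Of 19 tested, 12 were lower without overlap (63.2%), at a median of -0.87. Vamp2, a vesicle SNARE, was at 25.9, 37.7 and 22.4 CPM against 12.1 and 3.65, and the vesicle sensor Syt13 at 6.29, 7.86 and 10.3 against 1.81 and 2.11. Rab3d, at 54.4, 44.7 and 82.5 against 49.7 and 70.2, and Rab27b, at 29, 28.9 and 38 against 25.8 and 37.7, overlapped; both also act in other secretory cells. Rab3a and Rph3al overlapped too.

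Nutrient and irritant sensors were lower as a list, with 13 of 18 tested genes below without overlap (72.2%; median -1.54). Trpa1, the irritant channel of enterochromaffin cells, was at 26.9, 40.4 and 31.5 CPM against 4.74 and 9.44. The fatty acid receptors Ffar2, at 7.7, 10.4 and 10.1 against 3.76 and 6.9, and Ffar3, at 8.9, 3.45 and 5.58 against 2.1 and 1.85, did not overlap either. The somatostatin receptor Sstr5 was at 2.19, 2.78 and 3.52 against 0.55 and 1.11. Casr, the extracellular calcium sensor, was at 0 to 0.207 CPM in all 5 libraries, too few reads to compare.

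Serotonin genes were mixed. Tph1, the rate-limiting enzyme of serotonin synthesis in the gut, was at 36.8, 70.3 and 61.3 CPM against 12.6 and 29.5. Gch1, which makes its cofactor, was at 39.2, 43.9 and 36.5 against 23.7 and 11.3. Lmx1a and Fev were the other 2 of 4 without overlap among 11 (36.4%). Maoa, Ddc, Qdpr and Slc6a4, which enterocytes also express, overlapped, and the list's median was -0.17.

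Tuft cell genes were lower as well. Of 35 tested in the 2 tuft lists, 25 were lower without overlap (71.4%) and 0 were higher, against 14.5% and 10.8% of all tested genes. Among all genes of 2 to 4 log2 CPM, the range of both list medians, 18.6% were lower. DESeq2 called 9 of the 35 lower, against 1.19% of the genes with an adjusted p. Trpm5 was at 56.4, 25.5 and 44.3 CPM with NWD1 and at 13 and 15.4 with NWD2 (log2 fold change -1.57 ± 0.36, edgeR adjusted p 0.472). Pou2f3, the factor that specifies the lineage, was at 13.7, 5.02 and 6.71 against 3.43 and 2.27. Dclk1, a kinase used as a tuft marker, was at 48.8, 22 and 44.7 against 11.4 and 19.2. Avil, an actin-severing protein, was at 51.2, 22.7 and 37.4 against 9.87 and 12.9. The signalling regulator Rgs13 was at 85.1, 16.9 and 31.7 against 12.9 and 13, and Cd24a at 313, 148 and 218 against 128 and 137. In all 6 of these genes NWD1 replicate 1 was the highest library and NWD1 replicate 2 the lowest of the NWD1 libraries. Without NWD1 replicate 1 the median of the identity list was -1.14 in place of -1.71. Both NWD2 libraries were below NWD1 replicate 3 in 21 of 23 identity genes (91.3%, against 29.9% of all tested genes).

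Tuft effectors concern what these cells release. Alox5 and Alox5ap, which start leukotriene synthesis, were at 40.2, 12.5 and 26 against 5.54 and 5.97 CPM, and at 20.8, 4.09 and 6.97 against 3.53 and 2.93. Ptgs1, of prostaglandin synthesis, was at 23.1, 8.26 and 13.1 against 5.23 and 5.36. Siglecf, a surface lectin of tuft cells, was at 33.8, 14.2 and 20.1 against 7.01 and 8.43. Chat and Il25, for acetylcholine and the cytokine that tuft cells send to lymphoid cells, were at most 2.46 CPM with NWD1 and at most 0.483 with NWD2. Ltc4s, of leukotriene synthesis, at 19.9, 17.5 and 7.24 against 4.07 and 19.6, and Espn overlapped, as did Pla2g4a and Sucnr1.

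**Figure D3:**
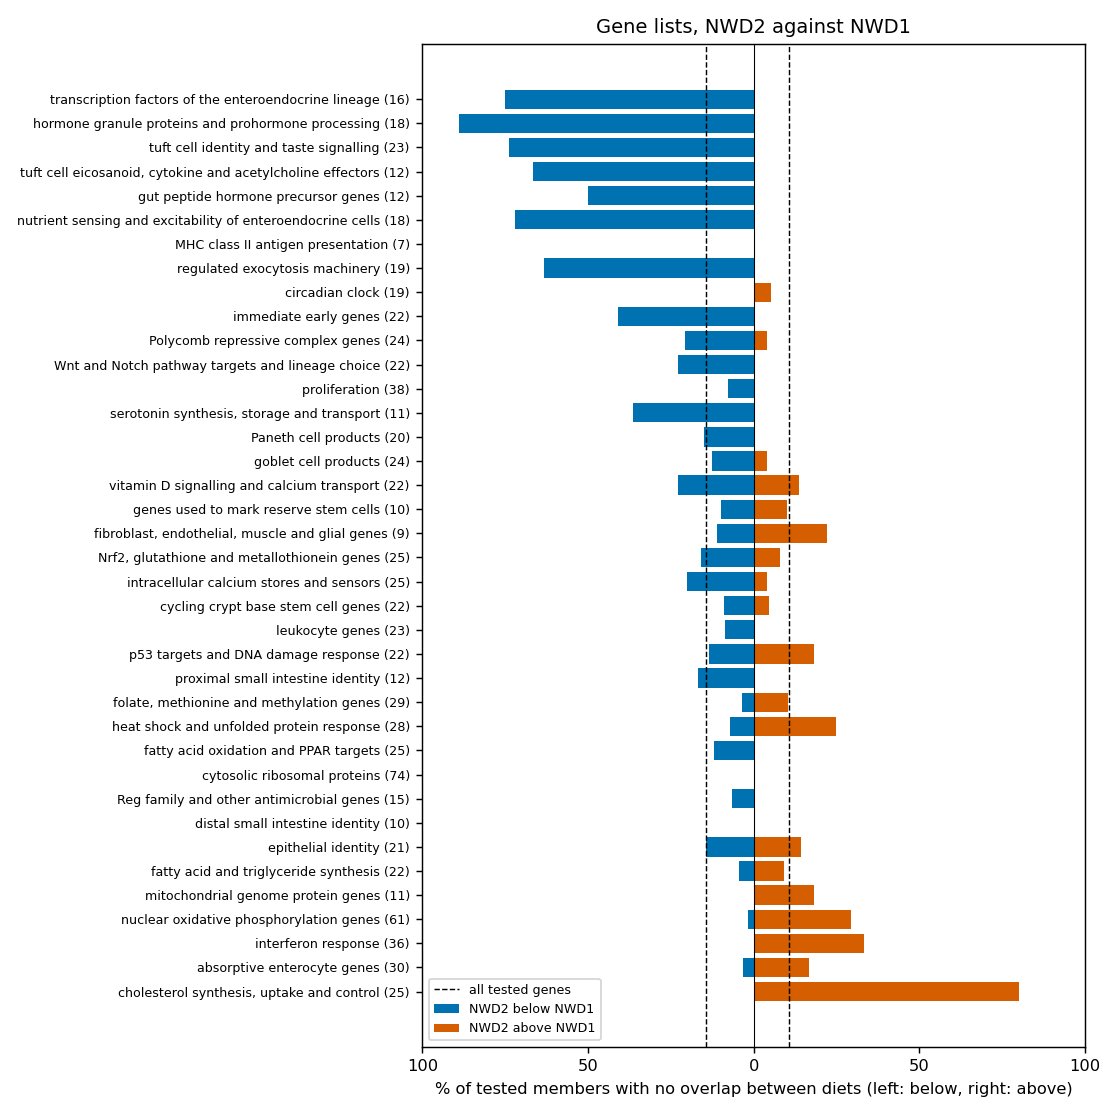
Percent of the tested members of each list (number in brackets) in which both NWD2 libraries lay below (left, blue) or above (right, orange) all NWD1 libraries; dashed lines are the 14.5% and 10.8% of all tested genes. The granule list reaches 88.9% on the left and the cholesterol list 80% on the right.

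Some tuft genes are also leukocyte genes, so leukocyte markers are given here. Of 23 tested, 2 were lower without overlap (8.7%), Rac2 and Ptprc, which tuft cells express as well. Ptprc was at 5.75, 1.51 and 5.11 CPM against 1.17 and 1.48. The defining T cell genes Cd3e and Cd3g were at most 2.06 CPM in any library. The list summed to 42.5, 38 and 90.1 TPM with NWD1 and to 31.5 and 40.8 with NWD2, highest in NWD1 replicate 3. Both NWD2 libraries were below NWD1 replicate 3 in 17 of the 23 (73.9%); the part of leukocyte RNA in the tuft values was not tested. Stromal markers summed to 9.58 to 10.9 TPM against 4.58 and 5.52. Of those sums, Vim was 7.51, 6.68 and 4.2 TPM against 1.73 and 0.796. Of 9 stromal genes tested, 1 was lower without overlap (11.1%) and 2 were higher (22.2%), at a median log2 fold change of -0.02. Vim, an intermediate filament gene that some epithelial cells also express, was at 8.75, 7.54 and 4.45 CPM against 2.12 and 1.14. The endothelial gene Cdh5 was at 0 in all 5 libraries.

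Genes of vitamin D action and calcium transport, the textbook targets of the added nutrients, did not move together. Of 30 listed, 22 were tested; 5 were lower without overlap (22.7%) and 3 higher (13.6%), at a median of -0.03. S100g was at 225, 384 and 137 CPM with NWD1 and at 29.5 and 111 with NWD2, and at 104 and 39.2 in the control libraries. Both NWD2 values were below all NWD1 values, with a log2 fold change of -1.82 ± 0.67 and an edgeR adjusted p of 0.548. Trpv6 was at 10.9 CPM in NWD1 replicate 2, the female library, and at 0.372 and 0.465 in the other NWD1 libraries against 0.151 and 0.0644 with NWD2. Its difference thus rested mainly on 1 library. That library is also the only one of the other sex, so sex and library cannot be told apart. Without that library, S100g was still at 225 and 137 against 29.5 and 111.

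Atp2b1 overlapped at 118, 190 and 189 CPM against 83.2 and 129. Slc30a10, a manganese exporter that vitamin D raises, overlapped at 32.5, 86.3 and 53.8 against 22.1 and 44.1. For both, the lowest of the 5 values was in NWD2 replicate 1, and NWD2 replicate 2 lay within the NWD1 range. Slc37a2, a sugar-phosphate exchanger listed as a vitamin D target, was at 15.5, 17 and 39.4 against 9.7 and 14.1, without overlap. Vdr overlapped, at 456, 493 and 613 with NWD1, with NWD2 replicate 1 inside that range and replicate 2 above it at 720, and Cyp24a1 was at 0 counts in all 5 libraries. The Vdr partner Rxra was at 35.2, 30.4 and 45 against 46.1 and 50.4, and Rxrb at 22.1, 22.1 and 21.8 against 19.2 and 8.88. The junction proteins Cldn15 and Cldn12 were higher without overlap, Cldn15 at 995, 929 and 960 against 1276 and 1188. In TPM, Cldn15 overlapped, at 938, 904 and 996 against 1145 and 910. Cldn2 and the vitamin D responsive cytochrome Cyp3a11 overlapped.

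**Figure D4:**
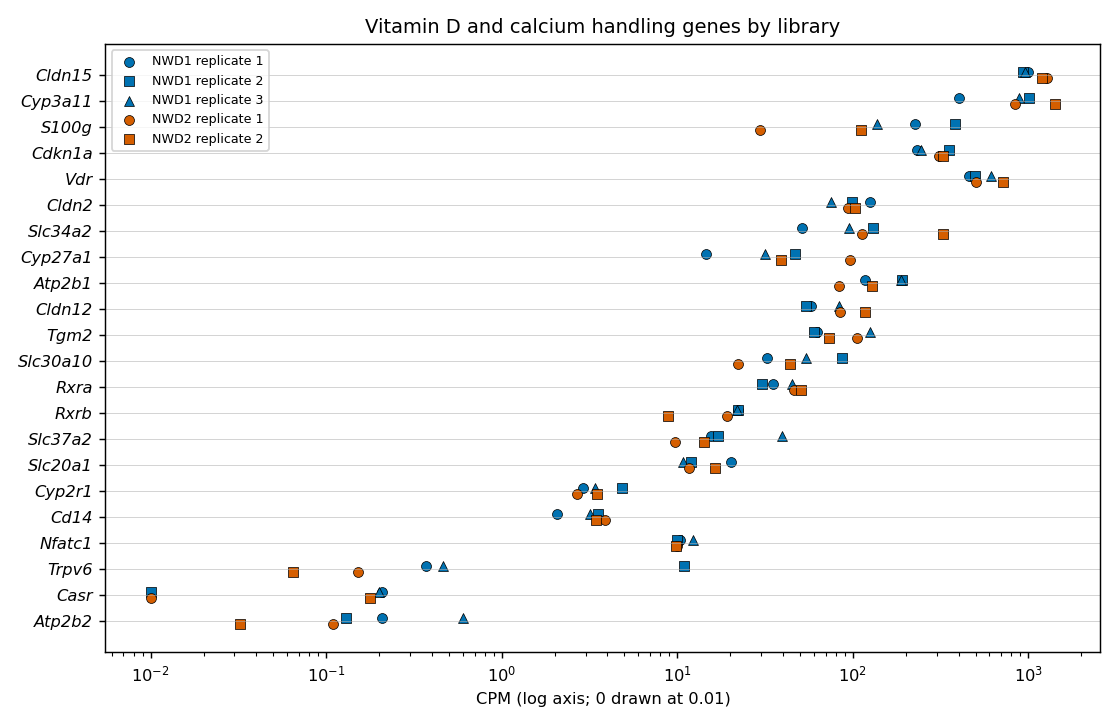
CPM on a log axis of the 22 tested vitamin D and calcium handling genes in each NWD1 (blue) and NWD2 (orange) library, ordered by mean TPM. S100g has both orange points below the blue ones, Vdr points intermingle, and a single blue square, 10.9 CPM in NWD1 replicate 2, sets Trpv6 apart.

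Calcium handling inside the cell showed no common shift. Of 25 genes of stores, channels and sensors, 5 were lower without overlap (20%, near the 14.5% of all tested genes) and 1 higher, at a median of 0.02. Mcu, the pore of the mitochondrial calcium uniporter, was at 251, 196 and 231 CPM with NWD1 and at 150 and 78 with NWD2, and its gatekeeper Micu2 at 75.8, 55.7 and 78.5 against 40.3 and 23.2. Orai1, the plasma membrane channel opened when stores empty, was at 27.3, 24.1 and 28 against 15.5 and 5.94, and the store sensor Stim2 at 14.8, 22.5 and 17.2 against 9.04 and 10.8. NWD2 replicate 2 was the lowest library for Mcu, Micu2 and Orai1. These 4 were picked after their values were seen. Calm2 and Calr, among the most abundant of the list by TPM, overlapped.

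Cholesterol synthesis was the clearest group on the higher side. Of 25 tested genes, 20 were higher without overlap (80%, against 10.8% of all tested genes), 14 at an unadjusted edgeR p under 0.05. The median log2 fold change was 0.66, whereas all genes of 6 to 8 log2 CPM, the range of the list's own median of 6.17, had 0.24 with 19.5% higher without overlap. Fdps was at 67.8, 85.7 and 48.9 CPM against 116 and 122, Msmo1 at 126, 140 and 93.3 against 204 and 216, and Fdft1, the first committed step to sterols, at 56.8, 59.2 and 40.9 against 90.1 and 91.7. Sqle, the next enzyme, was at 48.5, 64.8 and 50.7 against 105 and 85.8, Lss, which closes the sterol rings, at 19.2, 31.2 and 26.9 against 38.6 and 62.2, and Mvk at 15.8, 13.2 and 13.9 against 27 and 24.7. Both NWD2 libraries were above every NWD1 library in each of these genes, and in Fdps, Msmo1, Sqle and Lss the nearest NWD1 library was replicate 2.

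The master factor Srebf2 was higher without overlap by a small margin, at 82.9, 87.3 and 84.9 CPM against 107 and 125. Srebf1, Insig1 and Hsd17b7 were among the members that overlapped. Insig1, which holds the factor back in sterol-rich cells, was at 45.5, 154 and 35.9 against 81.9 and 60.6. The control libraries gave 120 and 105 CPM for Cyp51, 79 and 82.2 for Sqle and 31.6 and 34.9 for Lss, between the diets in each gene. Other members differed, with Fdps at 152 and 84.3 and Mvk at 30.4 and 20.1, control replicate 1 being above both NWD2 values. The list's mean log2 CPM, relative to the 5-library mean, was 0.1 and 0.03 in the controls. It was -0.36, 0.06 and -0.44 with NWD1 and 0.3 and 0.44 with NWD2. Without NWD2 replicate 2 the count was 21 of 25, without NWD1 replicate 3 it was 20, and with scaling by library size it was 16. The shares of all tested genes in these settings were 22.9%, 18.1% and 2.43%. Both NWD2 libraries were above NWD1 replicate 3, which has their i5 index, in 23 of 25, against 35.3% of all tested genes. Fatty acid synthesis, run by the sister factor Srebf1, had 2 of 22 genes higher without overlap (9.09%), Fasn and Scd2.

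The promoters of the sterol genes were searched for 2 sequences known from this pathway, the sterol regulatory element TCACNCCAC and the CCAAT box of the co-factor NF-Y, on both strands in the same 250 bases. Of the 17 tested members with a promoter entry, 16 held CCAAT (94.1%), against 40.6% of all 9660 tested genes with an entry. None of the 17 held TCACNCCAC, against 1.3%; looser forms of that element were not searched. Shown are the last 200 bases before the start for the 3 members among the 15 higher genes that have an entry, with CCAAT or its complement ATTGG in capitals. CCAAT was chosen for display after these counts were seen. They are Cyp51 (chr5:4104698-4104897, minus strand), Lss (chr10:76531405-76531604, plus strand) and Mvk (chr5:114444069-114444268, plus strand).
Cyp51: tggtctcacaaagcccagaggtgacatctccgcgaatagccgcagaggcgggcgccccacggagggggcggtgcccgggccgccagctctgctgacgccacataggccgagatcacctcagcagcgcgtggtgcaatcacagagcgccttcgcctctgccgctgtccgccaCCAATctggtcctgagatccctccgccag
Lss: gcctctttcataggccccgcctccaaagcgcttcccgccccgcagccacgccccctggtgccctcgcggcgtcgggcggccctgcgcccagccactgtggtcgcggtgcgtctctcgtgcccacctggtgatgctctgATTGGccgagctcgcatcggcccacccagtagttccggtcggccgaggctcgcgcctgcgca
Mvk: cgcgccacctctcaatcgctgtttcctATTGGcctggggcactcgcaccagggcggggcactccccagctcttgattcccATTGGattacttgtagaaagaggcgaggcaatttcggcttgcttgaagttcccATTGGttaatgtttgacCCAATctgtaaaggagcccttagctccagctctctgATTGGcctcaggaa

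Interferon response genes leaned to the higher side with NWD2. All 36 tested had positive log2 fold changes (median 0.59), against 53.5% of all tested genes. Of the 36, 12 were higher without overlap (33.3%), against 10.8% of all tested genes. All genes of 4 to 6 log2 CPM, the range of the list's own median of 5.05, had 13.6% higher and a median of 0.14. Irf7, a factor that amplifies the response, was at 79.6, 127 and 122 CPM against 213 and 186. Isg15, a ubiquitin-like modifier, was at 15, 23 and 28.9 against 56.7 and 33.9, Ifit1 at 21.8, 83.6 and 63.3 against 136 and 105, and Oasl2 at 39.8, 110 and 103 against 158 and 124. NWD1 replicate 1 was the lowest library in all 4 of these genes, and the list's mean log2 CPM there, relative to the 5-library mean, was -0.84, against -0.09 and 0.14 in the other NWD1 libraries and 0.51 and 0.28 with NWD2. The abundant B2m, Irf1 and Psmb8 overlapped. With scaling by library size, 4 of the 36 were higher without overlap, beside 2.43% of all tested genes. Without NWD1 replicate 3 there were 22, beside 18.1% of all tested genes. Both NWD2 libraries were above NWD1 replicate 3 in 16 of 36 (44.4%, against 35.3% of all tested genes), at a median log2 difference of 0.34.

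The interferon response element, a GAAA repeat with 2 free bases between its copies, was searched on both strands in the same windows. It was present in 14 of the 28 tested members with an entry (50%) and in 3.16% of the 9660 tested genes with one. The last 120 bases before the start are shown for Isg15 (chr4:156200819-156200938, minus strand), where 3 overlapping matches run together, and for Ifit1 (chr19:34640769-34640888, plus strand), where 2 matches stand on the complementary strand. Capitals mark the matches.
Isg15: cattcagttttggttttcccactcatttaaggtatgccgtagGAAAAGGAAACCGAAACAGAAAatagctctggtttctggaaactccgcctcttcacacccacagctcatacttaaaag
Ifit1: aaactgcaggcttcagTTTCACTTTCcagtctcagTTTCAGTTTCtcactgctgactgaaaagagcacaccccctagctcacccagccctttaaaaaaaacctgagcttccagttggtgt

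**Figure D5:**
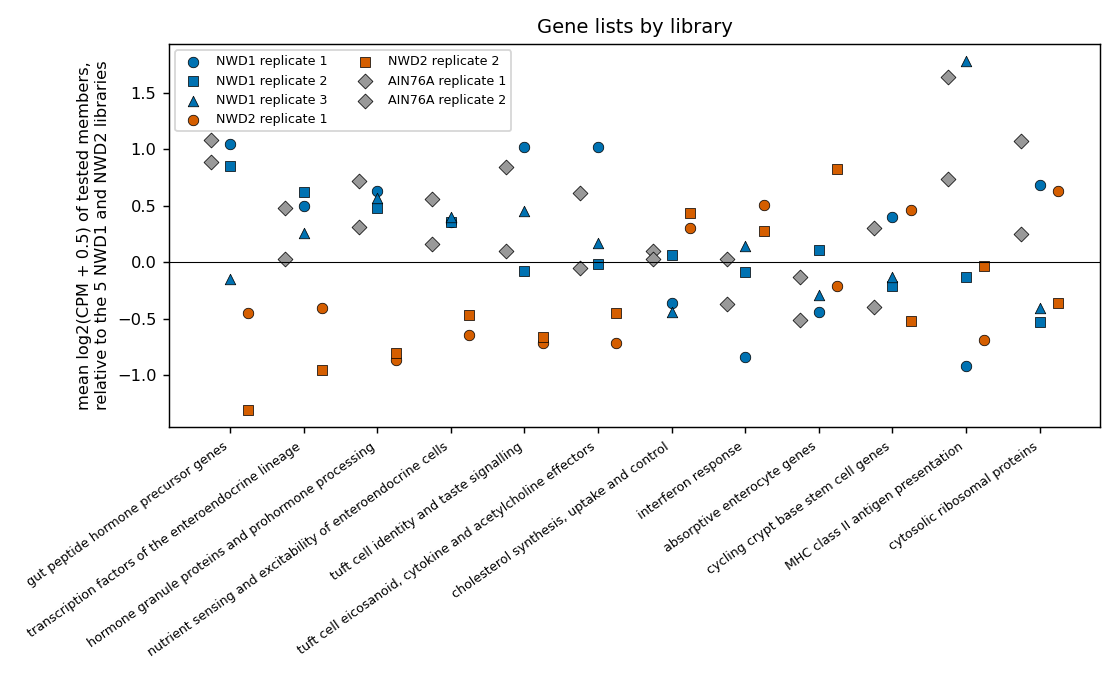
Mean log2(CPM + 0.5) of the tested members of 12 lists in each library, relative to the mean of the 5 NWD1 and NWD2 libraries; blue is NWD1, orange NWD2 and grey AIN76A, and each point is 1 library. Granule genes separate the diets (0.48 to 0.63 against -0.87 and -0.81), whereas enterocyte genes are high in NWD2 replicate 2 alone and MHC class II genes in NWD1 replicate 3 and the controls.

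Absorptive cell genes were higher mainly in 1 library. The 30 enterocyte markers had a median of 0.61, with 5 higher without overlap (16.7%) and 1 lower, beside 22.9% higher among all genes above 8 log2 CPM, where the list's own median of 10.16 lies. Without NWD2 replicate 2 the median was -0.12. Lct, the milk sugar enzyme of proximal villi, was at 453, 1160 and 833 CPM against 776 and 3384, and Apoa4, a lipoprotein of fat absorption, at 5563, 14046 and 4662 against 5623 and 19947. Fabp1 and Rbp2, binding proteins for fatty acids and retinol, overlapped. Those higher without overlap included sucrase-isomaltase Sis, at 1956, 2618 and 2406 against 3604 and 5677, and the glucose transporter Slc5a1, at 3017, 3877 and 5016 against 6597 and 6874, besides Mgam and Apoa1. Alpi, the alkaline phosphatase, was lower without overlap at 3894, 4716 and 4279 against 2828 and 3790.

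Paneth and goblet cells showed no common shift. Lyz1 was at 8143, 4921 and 8079 CPM against 4122 and 7978, and the defensin Defa24 at 7973, 6507 and 6779 against 4167 and 8690. Of 20 Paneth genes 3 were lower without overlap (15%), and of 24 goblet genes 3 were lower (12.5%) and 1 higher. The mucin Muc2 was at 221, 612 and 422 against 356 and 344, and Tff3 was the goblet gene that was higher, at 1113, 1091 and 1091 against 1280 and 1225. In TPM, Tff3 overlapped, at 4521, 4575 and 4880 against 4946 and 4042. Defensins have near-identical copies among which reads can be split.

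Stem cell and proliferation genes overlapped for the most part. Lgr5 was at 10.7, 4.37 and 6.17 CPM against 12.4 and 6.18, and Olfm4 at 807, 273 and 375 against 1024 and 410. The reserve stem markers Bmi1 and Hopx overlapped, Hopx at 103, 78.3 and 64 against 84.3 and 97.6. Sox9 was lower without overlap at 42.8, 24.8 and 25 against 19.7 and 3.65, the last value in NWD2 replicate 2. Of 22 Wnt and Notch genes 5 were lower without overlap (22.7%). This was near the 18.6% of all genes of 2 to 4 log2 CPM, the range of the list's own median of 2.85. The list's mean log2 CPM, relative to the 5-library mean, was 0.1 in NWD2 replicate 1 and -0.49 in NWD2 replicate 2. It was 0.15, 0.1 and 0.14 with NWD1. The 5 included the Wnt targets Sp5, at 10.6, 7.07 and 8.57 against 3.49 and 1.95, and Nkd1, at 1.47, 1.34 and 1.06 against 0.453 and 0.129. Beta-catenin itself, Ctnnb1, was at 422, 491 and 614 against 355 and 246. Of 38 cell cycle genes 3 were lower (7.89%), including Mki67 at 28.2, 34.1 and 26.9 against 25.9 and 12.3. Polycomb genes had 5 of 24 lower (20.8%) with Ezh2 at 17.5, 16.4 and 15.2 against 14.6 and 5.44. That share, at a list median of 2.91 log2 CPM, was also near 18.6%. The Polycomb mean was 0.07 in NWD2 replicate 1 and -0.33 in NWD2 replicate 2, against 0.17, 0.03 and 0.06 with NWD1.

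Most epithelial identity genes overlapped between the diets. Of 21 epithelial genes 3 were lower and 3 higher without overlap (14.3% each). Epcam, on which the sort was gated, was at 1338, 1182 and 1103 CPM against 838 and 225, and was lowest in NWD2 replicate 2. The factors Klf5 and Cdx2 were lowest there too, Klf5 at 196, 159 and 164 against 105 and 26.2.

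Energy and protein synthesis genes varied among libraries of the same diet. Of 61 respiratory chain genes 18 were higher without overlap (29.5%) at a median of 0.31. This was close to the 22.9% and 0.32 of all genes above 8 log2 CPM. With scaling by library size 3 of the 61 were higher without overlap, beside 2.43% of all tested genes. None of 74 ribosomal protein genes was without overlap in either direction. Their mean deviation was 0.68 in NWD1 replicate 1 and 0.63 in NWD2 replicate 1, but -0.53 to -0.36 in the other 3 libraries. Reads of ribosomal genes can be shared with processed pseudogenes.

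Stress and defence genes varied among libraries. Of 22 immediate early genes 9 were lower without overlap (40.9%), though the most abundant, Zfp36, Fos and Ier2, overlapped. Leaving aside the genes of highest GC content, 5 of 17 were lower and the median was -0.07. All tested genes so limited had 1783 of 13213 lower without overlap and a median of 0.07. Jun was at 34.2, 48.6 and 34.5 CPM against 15.4 and 12.7, and Jund at 15.4, 15.8 and 10.8 against 4.97 and 1.72. Egr1 and Dusp1 were highest in NWD1 replicate 2, at 24.5 and 12, and without that library the list's median was 0.12 in place of -0.31. The chaperone Hspa8 was higher without overlap at 569, 630 and 713 against 1062 and 913. In TPM, Hspa8 overlapped, at 274, 313 and 378 against 487 and 357. Hspa1a and Hspa1b, near-identical heat shock genes, were high in NWD2 replicate 1 alone, Hspa1b at 64.3 against 1.72 to 9.69 in the other 4. The antimicrobial lectin Reg3g was at 15031 in NWD2 replicate 1 and 6215 in NWD1 replicate 3 and at 749 to 1285 in the remaining 3. MHC class II genes, with Cd74 at 302 CPM in NWD1 replicate 3, 28.5 to 71.8 in the other NWD1 and NWD2 libraries and 343 and 140 in the controls, had negative log2 fold changes in 7 of 7 genes but 0 without overlap.

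Several of the widest departures belonged to 1 library. Cp, encoding ceruloplasmin, was at 1863 CPM in NWD1 replicate 1 and at most 0.145 in the other 4, and at 527 in control replicate 1. Pla2g4c was at 143 in NWD1 replicate 3 and at most 3.56 in the other 4, and at 10.9 in control replicate 1. Me1, the malic enzyme, was at 3.5 in NWD2 replicate 1 and at 70.2 to 167 in the other 4, and at 14.2 in control replicate 1. C1qbp was at 4.55 in NWD2 replicate 2 and at 36 to 73 in the other 4, and at 21.3 in control replicate 1. Defa21 was at 0.531 in NWD1 replicate 3 and at 69.3 to 112 in the other 4. In NWD1 replicate 2 the Y-linked genes Ddx3y, Eif2s3y and Uty were at 0.0288 each, and Xist was at 47.8 against at most 0.209, which matches its sex label.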

How the data were processed

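RNA of sorted crypt cells was sequenced in 7 libraries, 5 of which are compared here. Counts per gene were deposited by the authors with TPM for 6 of the libraries; STAR 2.4.2a, HTSeq 0.6.1, edgeR and the build mm9 are named in the submitters' processing notes, and the libraries were made with SMART-Seq v4 and Nextera XT without strand, per the labels' protocols. 1 TPM column whose name matches no sample was not used. TPM of NWD1 replicate 3 were computed from its counts and the gene lengths that the deposited TPM imply, which agreed between samples to 4.59e-07.

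Of 37310 genes, 14626 passed edgeR's expression filter. All 7 libraries were fitted with edgeR 4.0.16 (R 4.3.3; TMM, robust quasi-likelihood F test, 4 residual degrees of freedom, biological coefficient of variation 0.363), with Benjamini-Hochberg adjustment over all tested genes and a threshold of 0.05. The scripts were tested on simulated data. Alternatives were DESeq2 1.42.0, limma 3.58.1 with voom on counts and on log2 TPM, other scalings and filters, and thinning. Further ones were an i5 term, a sex term, a replicate block, a fit of NWD1 and NWD2 alone and leaving out each library. The log2 TPM fits used the 6 libraries with deposited TPM, so NWD1 replicate 3 was not in them. A comparison within 1 i5 index and one without genes of high GC content were added after seeing the data. An exact permutation test of 2 against 3 libraries cannot pass the threshold and was not used. "Without overlap" means that both NWD2 values lie beyond all 3 NWD1 values.

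The comparison, the gene lists and the genes named were chosen with earlier results of these data known. Named were the 15 genes of smallest p in each direction leaving out predicted genes, clone names and genes whose mean log2 CPM was below 1, the most abundant members of each list, a fixed set, and genes furthest apart in 1 library; further members were named to complete counts. Promoter sequences came from RefSeq (GRCm38.p6) by symbol; no coordinate of the deposited build is given. Some genes that the rule names are not reported here.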

Additional observations from a re-analysis of the deposited data

How the results depend on the processing

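edgeR called 0 genes in either direction; without a filter on low counts it called 330 lower and 54 higher, DESeq2 called 170 and 4, limma on log2(TPM + 1) 1 lower (mt-Co3, high in NWD1 replicates 1 and 2 only), the i5 index term 2 higher (Defa20 and Defa21), and leaving out 1 library 0 to 1 higher (Gm10925, without NWD2 replicate 2). Genes without overlap numbered 2121 lower and 1575 higher, with 2448 higher without the filter and 356 higher with scaling by library size, which moves the median log2 fold change of all genes to -0.19.

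The cholesterol median of 0.66 was 0.40 with scaling by library size, 0.34 on log2(TPM + 1), 0.35 on log2(TPM + 0.1), 0.91 with the i5 index term and 0.90 within their shared i5 index. With scaling by library size the granule, exocytosis and sensing medians were -1.99, -1.10 and -1.77. On log2(TPM + 1) the lineage factor, granule, exocytosis and sensing medians were -0.84, -1.10, -0.46 and -0.54, and sensing was -1.28 on log2(TPM + 0.1). The log2 TPM results here and above also lack NWD1 replicate 3, so they differ from the main fit in measure and in libraries. The i5 index term gave -0.69 for hormones and -0.99 for tuft effectors, which were at -1.01 within that index. Leaving aside the genes of highest GC content, the granule median was -1.62. Leaving out 1 library at a time gave 2755 to 4470 genes lower without overlap and 2443 to 4711 higher. The same gave medians of -2.39 to -1.11 for hormones, -2.41 to -1.58 for lineage factors, -1.76 to -1.51 for sensing, -2.01 to -1.14 for tuft identity and -1.83 to -1.05 for tuft effectors. The enterocyte median ran from -0.12, without NWD2 replicate 2, to 0.90. The causes were not tested. Fewer libraries make non-overlap easier to reach.

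The replicate numbers are shared by only 2 libraries of each diet, and deviations of same-numbered libraries from their diet means correlated at 0.261 and 0.122. NWD1 replicate 3, which has no partner of its number, was at 0.113 with NWD2 replicate 2. With 2 NWD2 libraries, each NWD1 library must correlate with them at equal and opposite values, so these values cannot check the pairing. The fit with this replicate block called 0 genes lower and 0 higher and changed the sign of no list median named here. The lowest depth, 14034315 counts in NWD1 replicate 3, limits genes of low level.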

Other observations

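Gt(ROSA)26Sor, the noncoding transcript of the locus that carries the fluorescent reporter, was at 8.44, 10.5 and 0.93 CPM in NWD1 replicates 1 to 3, at 0.907 and 0.386 with NWD2 and at 1.08 and 0.605 with AIN76A. NWD1 replicates 1 and 2 were thus the high libraries, and NWD1 replicate 3 lay near the NWD2 and control libraries. The gene was chosen after its values were seen.

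Genes of the glutathione system held 4 of 25 members lower without overlap (16%) and 2 higher (8%). Gclc and Gclm, the subunits of the rate-limiting enzyme of glutathione synthesis, Gsr, which regenerates glutathione, and the metallothionein Mt2 were the lower ones, and Nfe2l2 and Sod2 the higher ones. Of 22 p53 and DNA damage genes 3 were lower (13.6%) and 4 higher (18.2%), and of 29 folate, methionine and methylation genes 1 was lower and 3 higher. Circadian clock genes had 0 lower and 1 higher of 19 without overlap, and their median log2 fold change of -0.67 ran from -1.03 to 0.00 over the alternatives.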
